A study of Mus musculus with 20 samples.

Results

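The 8 genes described here carry the heart's electrical impulse or build the tissue that conducts it: Scn4b and Scn10a of the fast sodium current, Gja1 and Gja5 of the gap junctions, and Cntn2, Hcn4, Tbx3 and Irx3 of the pacemaker and conduction system. They were chosen by name from the 29339 genes of the table, and all 8 passed the filter on low counts (at least 10 counts in at least 3 libraries) in every comparison. Cntn2 had been called lower in female knockout hearts by an earlier analysis of these data when the genes were chosen, so the values of the 8 genes in that comparison are given as a description without a test. The other members were also chosen with earlier results of these data known. The p-values printed for members below are therefore not tests of genes picked independently of the data.

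RNA-seq libraries were made from the hearts of 8-week-old C57BL/6 mice, either wild type (WT) or labelled TECRL-/- (knockout, KO) for Tecrl. This gene encodes a trans-2,3-enoyl-CoA reductase-like protein, and mutations in it cause a catecholaminergic ventricular tachycardia. The labels gave 5 male WT, 5 male KO, 3 female WT and 7 female KO libraries, with no treatment in any group, and the targeted exon and the cells in which the gene was lost are not given in the sources used here. The library names formed 2 series: S1 to S12, with 3 libraries in each of the 4 groups, and WT1, WT2 and TKO1 to TKO6, which held male WT (WT1, WT2), male KO (TKO5, TKO6) and female KO (TKO1 to TKO4) libraries and no female WT library. The study's methods name 3 mice per group, fewer than the libraries analysed, and nothing in the labels ties libraries to mice, so every p-value measures the spread between libraries.

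Labels and contents of the libraries did not match in all cases. Tecrl itself lay between 51.8 and 122 CPM (counts scaled to library size) in all 20 libraries, and was not lost in those labelled KO. Xist was high and the Y-linked genes were at or near 0 in S7, S8 and S9, labelled male WT, while Y-linked genes were high and Xist near 0 in S4, S5 and S6, labelled female KO, so that 6 libraries went against their labelled sex and, within the S series, the WT label and Xist coincided. Whether S4 to S6 and S7 to S9 had their labels exchanged, genotype together with sex, was not tested, and the level of Tecrl gives no check of it. If they were, the comparisons below would hold these 6 libraries under the wrong genotype. "Labelled" is meant wherever a group is named below. Libraries also differed in atrial tissue: the summed level of 8 atrial cardiomyocyte markers (Myl7, Nppa and others) was 2298 to 7826 CPM in S7, S9, S11 and S12, 271 to 604 CPM in S5, S6 and S10, and 13.6 to 48.4 CPM in the other 13. Ventricular markers were abundant in all 20 libraries. S7 also held 382 CPM of adipocyte markers against at most 14.6 CPM in any other library. Library totals ran from 12540002 to 20038593 counts.

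As background, the impulse starts in the sinoatrial node, where the hyperpolarisation-activated channel HCN4 carries the pacemaker current and the repressor TBX3 holds back the working-muscle program. It crosses from cell to cell through gap junctions, built of the connexins Cx40 (Gja5) in atrial and Purkinje cells and Cx43 (Gja1) in working ventricular muscle. The His bundle and Purkinje network then carry it to the ventricles: there the transcription factor IRX3 raises Gja5 and lowers Gja1, and the cell adhesion protein contactin 2 (Cntn2) marks the cells. The upstroke depends on the sodium current, whose beta subunit NaVβ4 is the product of Scn4b and whose modulation by the neuronal channel NaV1.8 has been tied to Scn10a. In a whole heart these specialised cells are few, so their transcripts are scarce, and in bulk RNA fewer cells of a type and less RNA per cell cannot be told apart.

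The members lie apart in the genome (GRCm38), as protein-coding genes. Scn4b (9:45138395-45154152), Hcn4 (9:58823412-58863175) and Scn10a (9:119608456-119719322, minus strand) share chromosome 9, far from each other, and Cntn2 spans 1:132509427-132543256 on the minus strand. Gja1 spans 10:56377330-56402513, Gja5 3:96904693-97077416, Tbx3 5:119670669-119684724 and Irx3 8:91798525-91802067 on the minus strand. Gja5, Tbx3 and Irx3 overlap a gene on the opposite strand (Gpr89, Tbx3os1 and Irx3os) over 2.87%, 1.74% and 4.49% of their exon length, and reads of those stretches cannot be assigned to a strand since the strand setting of the counting was not given.

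The starts of Cntn2 and Hcn4 are shown because these members followed each other most closely below. That of Scn10a is shown because it had the largest fitted difference between the male groups. Each sequence is the RefSeq GRCm38.p6 window from 250 bases before to 50 bases after the transcription start, 5′ to 3′ on the gene's own strand. The table of RefSeq windows used here matched 7 of the 8 members, all but Tbx3. Capitals mark the motifs searched on both strands: GGTGTG for T-box factors, AGATAA for GATA factors, CAAGTG for NK2 factors and GGGCGG for the GC box; no matches overlap in these windows.
Cntn2 (chr1:132542891-132543190, minus strand): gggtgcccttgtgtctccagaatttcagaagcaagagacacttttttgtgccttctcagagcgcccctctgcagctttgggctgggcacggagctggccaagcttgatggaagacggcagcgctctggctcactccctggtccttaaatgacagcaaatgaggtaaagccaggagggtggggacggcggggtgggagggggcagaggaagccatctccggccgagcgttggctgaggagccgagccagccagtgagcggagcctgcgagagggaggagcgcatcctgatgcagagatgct
Hcn4 (chr9:58822699-58822998, plus strand): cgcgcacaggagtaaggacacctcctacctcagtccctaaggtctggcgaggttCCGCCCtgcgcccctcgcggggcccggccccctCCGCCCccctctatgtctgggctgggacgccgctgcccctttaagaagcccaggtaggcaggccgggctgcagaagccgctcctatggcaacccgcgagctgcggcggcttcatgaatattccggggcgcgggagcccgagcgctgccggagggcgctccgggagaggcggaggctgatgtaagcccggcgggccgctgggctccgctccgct
Scn10a (chr9:119718983-119719282, minus strand): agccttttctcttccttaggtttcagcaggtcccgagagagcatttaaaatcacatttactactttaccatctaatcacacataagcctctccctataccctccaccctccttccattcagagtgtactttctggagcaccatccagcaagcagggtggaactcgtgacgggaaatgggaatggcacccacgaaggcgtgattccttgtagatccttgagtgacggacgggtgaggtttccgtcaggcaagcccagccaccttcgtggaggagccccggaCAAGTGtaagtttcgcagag
The Hcn4 window held 2 GC boxes on the reverse strand, at -196 and -163 from the start, and the Scn10a window held the NK2 motif at 30 bases after it. No searched motif stood in the Cntn2 window. Of 32544 distinct windows of this kind in the genome, 35.9% held the GC box, 13.5% the NK2, 11.2% the GATA and 19.0% the T-box motif. Among the other members, Gja5 held the GC box at -17 and Gja1 the GATA motif on the reverse strand at -135 from the start, and Scn4b and Irx3 held none. The RefSeq start of Hcn4 lies upstream of the gene as annotated above, and GC content was 71.7% in the Hcn4 window, 61.3% in that of Cntn2 and 51.7% in that of Scn10a.

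Per length of transcript, the transcription factor Irx3 and the connexin Gja1 were the most abundant members. Median FPKM, a fragment count scaled to transcript length and library size, over the 20 libraries was 10.9 for Irx3, 9.60 for Gja1, 4.47 for Tbx3, 3.38 for Scn4b, 1.38 for Gja5, 0.939 for Cntn2, 0.798 for Hcn4 and 0.136 for Scn10a. The order was firm at 2 of its steps: Gja1 stood above Tbx3, and Hcn4 above Scn10a, in 20 of 20 libraries. Elsewhere neighbours changed places within the spread. Irx3 was above Gja1 in 15 libraries, Tbx3 above Scn4b in 14, Scn4b above Gja5 in 16, Gja5 above Cntn2 in 13 and Cntn2 above Hcn4 in 12.

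The members differed in how far they varied. In CPM, Gja1 spanned 63.1 in S8 to 176 in S7, a ratio of 2.80, and Irx3 and Tbx3 spanned ratios of 3.17 and 3.63. Hcn4, Scn4b and Gja5 spanned ratios of 9.14, 10.5 and 10.9. Cntn2 ran from 0.512 CPM in S4 to 61.6 CPM in S12, a ratio of 120, the widest of the 7 members with counts in every library. Scn10a had 0 counts in S4, which allows up to 0.192 CPM (3 counts), and reached 4.08 CPM in S1. The plot of levels by group shows that the widest spreads came from few libraries.

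**Figure D1:**
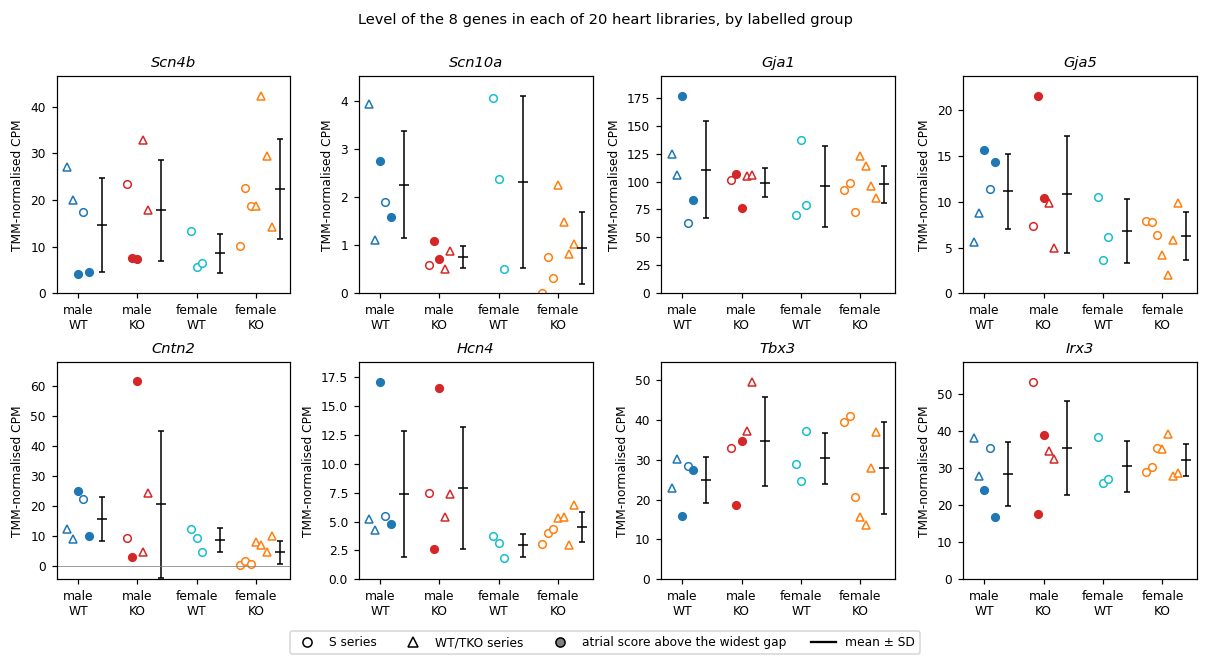
Each panel plots 1 gene: TMM-normalised CPM (linear axis) for each library by labelled group, circles for the S series, triangles for the WT/TKO series, filled where the atrial score lay above its widest gap, with mean ± SD (n = 5, 5, 3 and 7) in black. Scn10a is at or under 1.08 CPM in all male KO libraries and at or above 1.12 CPM in all male WT libraries, and Cntn2 is highest in S12, at 61.6 CPM.

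Libraries labelled male KO were first compared with those labelled male WT. S7, S8 and S9 of the WT group had 0 CPM of Y-linked genes and 252 to 325 CPM of Xist, whereas all 5 male KO libraries held 150 to 196 CPM of Y-linked genes, so the Y-linked median log2 fold change was 3.54, and within the S series the genotype label and sex-linked content cannot be told apart. Scn10a was the member that stood apart: its values lay lower in male KO with no overlap between the groups, although the difference did not pass the adjusted test. The other 7 members overlapped between genotypes, and their fitted differences were between -0.17 and 0.43 on the log2 scale. No member passed an adjusted p of 0.05 in edgeR's quasi-likelihood test (series as a term), nor did any of the 14481 genes tested (0%), while 688 (4.75%) had an unadjusted p under 0.05 and DESeq2 called 13. Of the members, 1 (Scn10a) had an unadjusted p under 0.05 and DESeq2 called 0.

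Scn10a encodes NaV1.8, a sodium channel best known from sensory neurons and found in intracardiac neurons. It measured 3.95, 1.12, 2.77, 1.91 and 1.60 CPM in the male WT libraries WT1, WT2, S7, S8 and S9, and 0.587, 1.08, 0.724, 0.501 and 0.885 CPM in the male KO libraries S10, S11, S12, TKO5 and TKO6. Every male WT value lay above every male KO value, by a narrow margin between WT2 and S11, and the counts behind them were 16 to 64 against 6 to 15. The group means were 2.27 ± 1.12 and 0.756 ± 0.233 CPM (SD, n = 5 each), and the log2 fold change was -1.59 (SE 0.398, edgeR adjusted p = 0.882). Groups did not overlap for 0.587% of all genes tested. The study's own thresholds ask for an unadjusted p below 0.05 together with a log2 fold change of 0.58 or more in size; 2.09% of genes met them, 1.19% as lower in KO, and among the members only Scn10a did, a count of 1 that was 2 without S11 and 0 to 2 over the other settings. The difference kept its sign in each leave-one-out fit, from -1.77 to -1.18. It was -1.38 (SE 0.413) in the S libraries alone, where the genotype label and sex-linked content coincide. It was -1.89 (SE 0.668) without the libraries against their labelled sex, which left WT1 and WT2 as the WT group. It was -1.92 (SE 0.657) with the Y-linked level as a term and -1.82 (SE 0.523) without the 4 libraries of highest atrial content. On FPKM, where 1 was added before the log, the same difference was -0.22, as the gene's level is far below 1. If S4 to S6 and S7 to S9 had exchanged labels, male WT would hold the 0, 0.755 and 0.317 CPM of S4 to S6, and the groups would overlap. Scn10a was 0.812 to 2.27 CPM in TKO1 to TKO4, which carry Xist, and 0.501 and 0.885 CPM in TKO5 and TKO6, which carry Y-linked transcripts. The part of sex-linked content was not tested. The summed level of 7 neuron markers was 6.52 to 18.6 CPM in male WT and 7.18 to 13.2 CPM in male KO, and its part in the Scn10a difference was not tested.

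Scn4b encodes NaVβ4, the subunit that speeds reopening of sodium channels. Its male WT libraries measured 27.1, 20.1, 4.05, 17.4 and 4.60 CPM and its male KO libraries 23.5, 7.51, 7.37, 32.8 and 17.8 CPM, in the library order used for Scn10a. Low values fell in both genotypes, in the 4 libraries rich in atrial markers. The log2 fold change was 0.35 (SE 0.452, edgeR adjusted p = 0.906) and without S10 it was -0.09.

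The gap junction genes had fitted differences near 0. Gja1, which encodes Cx43, measured 125, 106, 176, 63.1 and 83.3 CPM in male WT and 101, 106, 76.6, 105 and 106 CPM in male KO, a log2 fold change of -0.17 (SE 0.235) that became 0.14 without S7, its highest library. The male KO values of Gja1 lay close together except S12. Gja5, which encodes Cx40, measured 5.62, 8.84, 15.7, 11.4 and 14.4 CPM in male WT and 7.41, 21.6, 10.4, 9.93 and 4.91 CPM in male KO, a log2 fold change of -0.04 (SE 0.289). Its low values were in WT1 and TKO6 and its high value in S11, so both genotypes covered much the same range. The edgeR adjusted p-values were 0.910 and 0.985.

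The conduction system genes rested on few libraries. Cntn2 measured 12.4, 9.12, 24.9, 22.5 and 9.94 CPM in male WT and 9.39, 2.96, 61.6, 4.92 and 24.4 CPM in male KO. The KO values enclosed the WT values on either side, with the highest and the lowest libraries of both groups. The log2 fold change of Cntn2 was 0.38 (SE 0.662, edgeR adjusted p = 0.925), and -0.65 without S12. Hcn4, the pacemaker channel, measured 5.19, 4.28, 17.1, 5.47 and 4.79 CPM in male WT and 7.48, 2.60, 16.6, 5.43 and 7.40 CPM in male KO. Each genotype had 1 high library of Hcn4, S7 and S12, both rich in atrial markers, and the log2 fold change was 0.14 (SE 0.462, edgeR adjusted p = 0.963).

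Tbx3, the repressor of the working program, was 15.8 to 30.1 CPM in male WT and 18.5 to 49.5 CPM in male KO. Of its male KO values, 4 exceeded every male WT value, S11 being the exception, with a log2 fold change of 0.43 (SE 0.218, edgeR adjusted p = 0.882). Irx3, which patterns the Purkinje network, was 16.8 to 38.1 CPM in male WT and 17.6 to 53.2 CPM in male KO, a log2 fold change of 0.31 (SE 0.288, edgeR adjusted p = 0.882). Of the 8 members 5 had a fitted difference above 0 and 3 below, with a median of 0.22 against -0.01 over all genes tested.

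**Figure D2:**
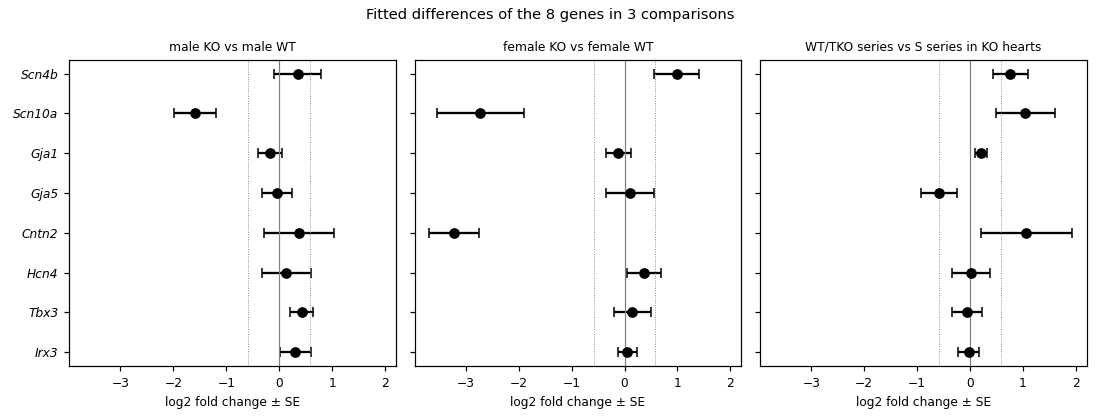
Points are fitted log2 fold changes of the 8 genes and bars 1 SE either way, in male KO against male WT (10 libraries), female KO against female WT (10 libraries) and the WT/TKO against the S series in KO hearts (12 libraries); dotted lines mark 0.58. Scn10a lies at -1.59 in the male and -2.73 in the female comparison, Cntn2 at 0.38 and -3.23, and Gja1 within 0.21 of 0 in all.

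In female hearts Cntn2 and Scn10a had the most negative fitted values, and Scn4b the most positive. With the series as a term, only the S libraries inform this contrast, and its 3 KO libraries (S4, S5 and S6) carry Y-linked transcripts, so genotype and the sex-linked genes cannot be told apart in it. Atrial content moved with it too: the summed atrial markers were 22.5, 271 and 372 CPM in S4, S5 and S6 against 26.9 to 48.4 CPM in female WT, and 6 of 6 atrial markers tested had fitted values above 0, with a median of 2.17. With the atrial score as a term the values were -3.72 (SE 0.827) for Cntn2, -4.11 (SE 1.71) for Scn10a and 0.42 (SE 0.628) for Scn4b. Of 14511 genes 8 passed an adjusted p of 0.05 (0.0551%), 4 of them Y-linked genes higher in KO, and 1450 the study's thresholds (9.99%).

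Cntn2 measured 12.4, 9.43 and 4.67 CPM in the female WT libraries S1, S2 and S3, 0.512, 1.72 and 0.634 CPM in the female KO libraries S4, S5 and S6, and 8.12, 7.13, 4.93 and 10.1 CPM in TKO1, TKO2, TKO3 and TKO4. The 3 S libraries of the KO group lay below every other library of the series, whereas the 4 TKO libraries lay within the range of female WT. The log2 fold change was -3.23 (SE 0.465) with the series term, and -0.24 (SE 0.325) when S4 to S6 and the series term were left out, so that S1 to S3 met TKO1 to TKO4 of the other series. The difference between the male value of Cntn2 (0.38) and the female value was not tested.

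Scn10a measured 4.08, 2.39 and 0.503 CPM in S1, S2 and S3, 0, 0.755 and 0.317 CPM in S4, S5 and S6, and 2.27, 1.48, 0.812 and 1.04 CPM in TKO1 to TKO4. Female KO overlapped female WT through S3, and the S libraries of the KO group were again lower than the TKO libraries. The log2 fold change was -2.73 (SE 0.820), and -0.77 (SE 0.572) without S4 to S6. Scn4b measured 13.4, 5.75 and 6.61 CPM in female WT and 10.2 to 42.3 CPM, with a median of 18.7 CPM, in female KO. Only S4 of the 7 KO libraries lay below the highest WT library of Scn4b, and the log2 fold change was 0.98 (SE 0.420), and 1.59 (SE 0.403) without S4 to S6.

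The remaining members had fitted values between -0.12 and 0.37 in female hearts, and without S4 to S6 from -0.37 for Tbx3 to 0.76 for Hcn4. Gja1 was 70.4 to 138 CPM in WT and 72.9 to 123 CPM in KO, and Gja5 3.62 to 10.5 and 1.98 to 9.90 CPM. Hcn4 was 1.87 to 3.79 CPM in WT and 2.997 to 6.42 CPM in KO, Tbx3 24.7 to 37.2 and 13.6 to 40.9 CPM, and Irx3 25.9 to 38.4 and 27.8 to 39.2 CPM. All 5 overlapped between genotypes. The median over the 8 members was 0.07 against -0.02 over all genes.

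The KO libraries exist in both series and in both labelled sexes, so that the series could be compared within KO, with labelled sex as a term. That term does not hold sex-linked content equal: all 6 S libraries held 150 to 203 CPM of Y-linked genes, while TKO1 to TKO4 held none and 298 to 456 CPM of Xist. Across 14540 genes, 1622 (11.2%) passed an adjusted p of 0.05 and 1605 (11%) the study's thresholds. The first count was 44 with the Y-linked level in place of labelled sex and 71 without the libraries against their labelled sex. With the atrial score as a term it was 151. Of the 7 members other than Cntn2, 0 passed an adjusted p of 0.05 in edgeR's test or DESeq2. Scn4b alone passed the study's thresholds, with an unadjusted p of 0.0363 in edgeR's test. The count of 1 was 0 to 2 on leaving out 1 library, with 0 without S12, S4, TKO2 or TKO3 and 2 without TKO4, and 0 to 3 over the other settings.

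Scn4b was 7.37 to 23.5 CPM with a median of 14.4 CPM in the 6 S libraries of KO hearts and 14.2 to 42.3 CPM with a median of 24.1 CPM in the 6 TKO libraries. The ranges overlapped between 14.2 and 23.5 CPM. The log2 fold change of the TKO over the S libraries was 0.76 (SE 0.330, edgeR adjusted p = 0.149), and 0.45 (SE 0.299) without S11 and S12, the KO libraries of highest atrial content, and 0.08 with the atrial score as a term. Gja5 was the member with the most negative value: its log2 fold change was -0.58 (SE 0.340, edgeR adjusted p = 0.283), from 6.34 to 21.6 CPM in S and 1.98 to 9.93 CPM in TKO libraries, and 0.01 with the atrial score as a term.

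The value of Cntn2 moved with the libraries and terms used. Its log2 fold change was 1.07 (SE 0.862) over all KO libraries, 0.08 (SE 1.22) with the Y-linked level in place of labelled sex, 2.996 (SE 0.395) in those labelled female and -0.77 (SE 1.08) in those labelled male, where S12 had the highest value. In the libraries labelled female, S4 to S6 carry Y-linked transcripts and TKO1 to TKO4 Xist, so series and sex-linked content cannot be told apart. Since S4 to S6 are the libraries through which Cntn2 was chosen, no test is given for it here. Scn10a had a log2 fold change of 1.05 (SE 0.564, edgeR adjusted p = 0.244), and 0.25 (SE 0.748) with the Y-linked level in place of labelled sex. It was -0.20 in libraries labelled male, where S and TKO values mixed. In those labelled female it was 1.96 (SE 0.680), with the same limit as for Cntn2. With the atrial score as a term the values were 3.53 (SE 0.889) for Scn10a, 4.57 (SE 1.31) for Cntn2, -0.89 (SE 0.447) for Tbx3 and 0.76 (SE 0.617) for Hcn4, all farther from 0 than without it. Gja1 was 72.9 to 106 CPM in S and 85.1 to 123 CPM in TKO libraries, a log2 fold change of 0.21 (SE 0.117, edgeR adjusted p = 0.264). Hcn4, Tbx3 and Irx3 had values of 0.02, -0.05 and -0.02 with SEs of 0.355, 0.283 and 0.196. The median of the 8 members was 0.12 against 0.01 over all genes.

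Levels were then followed along atrial content. The atrial score is the mean of log2(CPM + 0.5) over 8 atrial markers, none of them a member, and a slope is the log2 change of a gene per unit of score, with labelled group and series as terms. Scn4b was the member that passed the test, with lower levels at higher score, and Irx3, Tbx3 and Hcn4 had unadjusted p-values of 0.0312, 0.0690 and 0.0446 with slopes of -0.10, -0.11 and 0.16, where 21.9% of all genes had an unadjusted p under 0.05. Of 15187 genes, 1108 (7.3%) passed an adjusted p of 0.05, 395 (2.6%) with a slope below 0 and 713 (4.69%) with a slope above 0.

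Scn4b was 4.05, 4.60, 7.51 and 7.37 CPM in S7, S9, S11 and S12, the 4 libraries above the widest gap of the score, and 5.75 to 42.3 CPM with a median of 18.7 CPM in the other 16. Low values of Scn4b were therefore not confined to atrial-rich libraries, since S2 and S3 measured 5.75 and 6.61 CPM with little atrial signal. Its slope was -0.25 (SE 0.0753, edgeR adjusted p = 0.0451). The call rested on a narrow margin: it was lost in 13 of 20 fits that left out 1 library (WT2, S3, S6, S7, S8, S9, S10, S11, S12, TKO1, TKO3, TKO4 or TKO5), with slopes from -0.32 to -0.23. The slope was 0.17 (SE 0.160) in the 16 libraries below the gap and -0.61 (SE 0.196) without the 6 libraries against their labelled sex, and passed in neither. Other contents moved with the score. The summed ventricular markers were 19387 to 27865 CPM in the 4 libraries above the gap and 26990 to 39175 CPM in the 16 below it, the summed fibroblast markers 1016 to 1266 and 712 to 933 CPM. Of the adipocyte markers 3 of 3 tested rose with the score, with a median slope of 0.66, and S7 held 382 CPM of them, while 3 of 5 fibroblast markers rose, with a median of 0.12. The part of these contents in the slope of Scn4b was not tested.

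**Figure D3:**
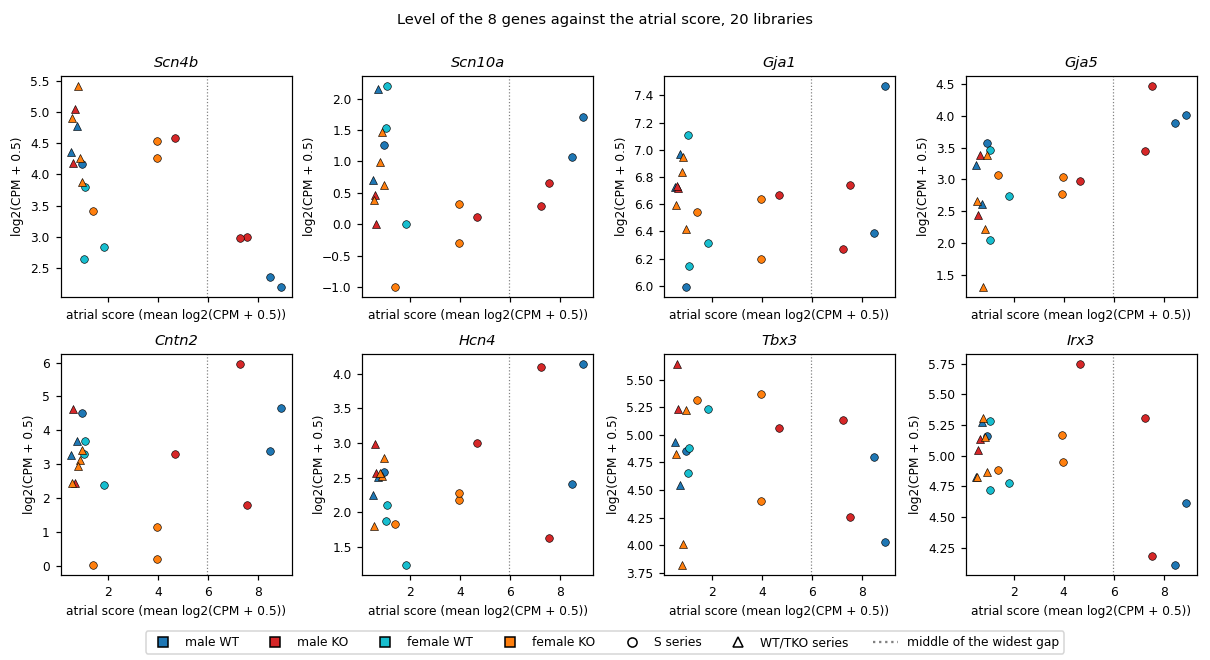
Each panel plots 1 gene: log2(CPM + 0.5) against the atrial score for the 20 libraries, coloured by labelled group, circles for the S and triangles for the WT/TKO series, with a dotted line in the middle of the widest gap. Scn4b lies at or under 7.51 CPM in all 4 libraries right of the line, while Hcn4 and Cntn2 are high in S7 and S12 and low in S11 on the same side.

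Hcn4 and Gja5, which atrial or nodal cells express, had slopes above 0 that did not pass. Hcn4 was 17.1 and 16.6 CPM in S7 and S12 but 4.79 and 2.60 CPM in S9 and S11, so that libraries of like atrial content differed in the pacemaker channel. Its slope fell to 0.05 without S7 (0.16 with all libraries, SE 0.0745, edgeR adjusted p = 0.213). Gja5 was 15.7, 14.4, 21.6 and 10.4 CPM in S7, S9, S11 and S12 against 1.98 to 11.4 CPM in the other 16. The Gja5 values above the gap thus held the 3 highest of all libraries, and its slope was 0.08 (SE 0.0670, edgeR adjusted p = 0.504). Gja5 is also an arterial endothelial gene; the summed arterial endothelial markers were 78.1, 208, 210 and 180 CPM in those 4 libraries, lowest in S7, and their part was not tested. Scn10a and Gja1 had slopes of 0.13 and 0.08 with edgeR adjusted p-values of 0.524 and 0.256. The slope of Scn10a was 0.37 without S8, and that of Gja1 was 0.02 without S7. Cntn2 had a slope of 0.13, and 0.64 without S8, given with no test because S4 to S6 enter this fit as well. The members' median slope was 0.08 against 0.00 over all genes.

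Members were also compared with each other over the 20 libraries, in log2(CPM + 0.5), as a description: the libraries share groups, series and tissue content, and the members were chosen with values known, so no p is given for the 28 pairs. Cntn2 and Hcn4 followed each other most closely. Pearson's r was 0.67 and Spearman's rho 0.67 (n = 20), r was 0.67 in the 12 S and 0.68 in the 8 WT/TKO libraries, and 0.75 without S4 and S6, the libraries farthest from the median of Cntn2. Hcn4 was 18th among 15186 genes by r with Cntn2. Both genes were highest in S12 and S7, and their promoter windows shared none of the searched motifs.

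Scn10a also followed Cntn2, with r 0.56 and rho 0.59, and was 92nd among the 15186 genes. S4 and S6 were lowest in both, and r was 0.43 without S4 and S1, 0.62 in the S and 0.27 in the WT/TKO libraries. Scn4b and Irx3 had r 0.63 and rho 0.56, with r 0.49 without S7 and S9, and 0.71 and 0.54 within the series. Irx3 was 1259th among all genes by r with Scn4b. Gja5 and Gja1, the connexins of conduction and working muscle, had r -0.21, and Irx3 had r -0.47 with Gja5 and -0.16 with Gja1.

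**Figure D4:**
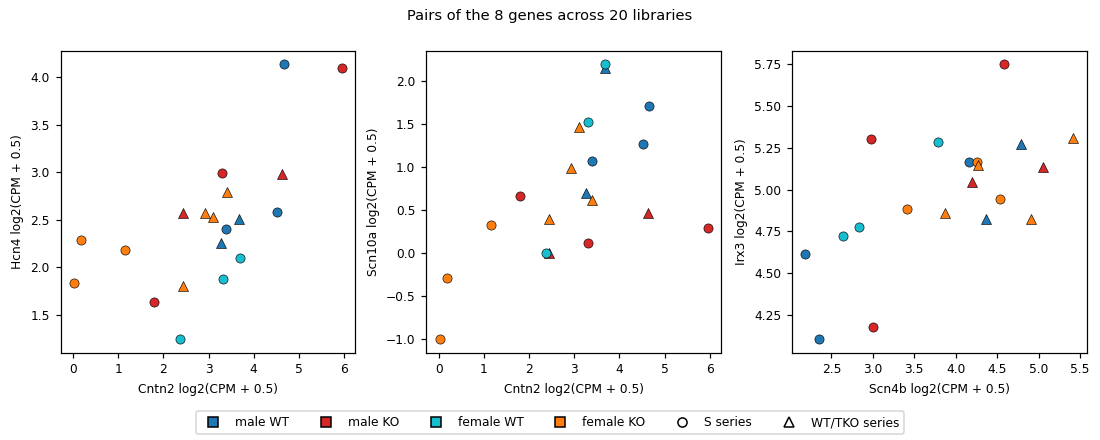
Points are the 20 libraries, plotted as log2(CPM + 0.5) of Hcn4 against Cntn2, Scn10a against Cntn2 and Irx3 against Scn4b, coloured by labelled group, circles for the S and triangles for the WT/TKO series. The pairs have r 0.67, 0.56 and 0.63, and 3 female KO libraries of the S series lie at the lowest Cntn2.

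Among all genes, those most like each member over the 20 libraries were named by r of log2(CPM + 0.5). Scn4b was most like Pdk2 (r 0.95), the pyruvate dehydrogenase kinase, then Dnajc28 and Aldh4a1. Cntn2 was most like the dopamine receptor gene Drd2 (r 0.87), then Gm14267 and Tox, and Scn10a like Slit2 (r 0.81), Stx18 and again Drd2 (r 0.72). Hcn4 was most like Gcgr (r 0.85), the glucagon receptor gene, then Lpar3 and Cpne5. Gja1 was most like Epc2 (r 0.90), Nedd4l and Tmf1, and Gja5 like Retreg2 (r 0.90), Fzd7 and Itih4. Tbx3 was most like Pdgfb (r 0.85), Stk10 and Unc119b. Irx3 was most like the adenosine receptor gene Adora1 (r 0.86), then Mpi and the angiotensin receptor gene Agtr1a.

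The wider set held 47 further genes of sodium channels, gap junctions and discs, pacemaking and ventricular conduction. In male KO against male WT 0 of the 42 tested passed an adjusted p of 0.05 in edgeR's test or DESeq2, and 1 had an unadjusted p under 0.05; the log2 fold changes largest in size per list, among genes with a mean of at least 1 CPM, were -0.56 for Scn4a and 0.42 for Scn3a, -0.34 and -0.29 for the desmosomal genes Dsg2 and Dsp, -0.72 for the calcium channel gene Cacna1d and -0.59 for Rgs6, and -0.60 and -0.59 for Sema3a and Id2. List medians there ran from -0.15 to 0.08, against -0.01 over all genes. Between the series in KO hearts, 4 of 40 tested (10%, against 11.2% of all genes) passed in edgeR's test: Fgf12, a sodium channel regulator, at -3.55 (adjusted p = 0.0308) and Id2 at -0.74 (adjusted p = 0.0266) were lower in TKO libraries, and Ntm at 0.86 (adjusted p = 0.0493) and Smoc2 at 0.48 (adjusted p = 0.0205) higher. In the same contrast 5 of 7 atrial markers tested were lower, with a median of -6.17, as were 3 of 3 adipocyte markers (median -3.14) and 2 of 5 red blood cell markers (median -1.48), and the part of these contents was not tested.

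Along the atrial score, the pacemaker list was the one with many calls: 7 of 13 tested rose and 1 fell (7.3% of all genes passed). Its median slope was 0.20 against 0.00 over all genes. Calls over all genes fell from 1108 to 5 in the 16 libraries below the widest gap and to 114 with Myl7 alone as the score. They fell to 0 without the 6 libraries against their labelled sex, and the calls of the lists were not followed in these settings. Among those that rose were Vsnl1 (1.07, at a mean of 0.329 CPM) and the calcium channel genes Cacna1h (0.34) and Cacna1d (0.28). The potassium channel genes Kcnj5 (0.22) and Kcnj3 (0.20) and Tbx18 (0.10) rose too, while Hcn2, the main ventricular pacemaker channel gene, fell (-0.16). Hcn4, a member, was not among those called. Of the other lists, Fgf12 (0.89) among 10 sodium channel genes tested, Gjd3 (0.38) among 10 gap junction and disc genes and Tbx5 (0.21) and Etv1 (0.13) among 9 ventricular conduction genes rose.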

How the data were processed

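Per the labels and methods, poly-A RNA of hearts was sequenced as paired-end reads, and the submitters' processing notes name HISAT2, HTSeq 0.6.1p2, DESeq2 1.26.0 and GRCm38. The authors deposited 1 table with raw counts and FPKM values per gene for 20 libraries, and every column was used. The annotation and strand setting are not given in the sources used here; 29328 of 29339 gene IDs matched GENCODE M21.

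Counts were tested with edgeR 4.0.16 (TMM, quasi-likelihood, Benjamini-Hochberg over all genes that reached 10 counts in 3 or more libraries of the fit), in R 4.3.3. Each printed SE is the size of the edgeR log2 fold change or slope over the square root of its F statistic, not a separately estimated error. DESeq2 1.42.0, limma 3.58.1 on log2(FPKM + 1), other filters, terms and libraries were alternatives. The printed CPM values were TMM-normalised over the 20 libraries; levels between genes were compared as deposited FPKM. The male, series and atrial fits were run on simulated data with 200 genes changed 4-fold, the outcome of which is not given here. Totals of 12540002 to 20038593 counts limit the precision of the scarcest genes, and the floor of 3 counts covers counting error only. No 2 libraries of a group agreed within sampling noise (44 pairs).

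The members, lists and the rule for named genes (all 8 members, of the wider lists the genes called or else the 2 of largest difference with a mean of at least 1 CPM, and the 3 genes most like each member) were chosen with earlier results of these data known. A few genes of these lists are not reported here by name.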

Additional observations from a re-analysis of the deposited data

Results flagged for a closer look

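In 2 cases 1 library lay far from the others of its group, by Dixon's test at its 95% value. Hcn4 was 17.1 CPM in S7 among the male WT libraries, where the next was 5.47 CPM; S7 was also the library with the highest atrial score and the highest adipocyte markers. Gja1 was 76.6 CPM in S12 among the male KO libraries, where the next was 101 CPM. Chance gives such a result in about 1 of 20 groups, and 24 groups were tested.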

How the results depend on the processing

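No paired analysis was possible because the libraries are numbered through a series: male WT and male KO share no number, and the numbers that female WT shares with female KO belong to the other series. The settings that left out the 6 libraries against their labelled sex or the 4 libraries of highest atrial content were added after seeing the data.

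In male KO against male WT, 0 members passed an adjusted p of 0.05 under any setting, and Scn10a and Tbx3 kept their direction in all. Signs changed for the other 6 members as follows, and the cause was not tested. With the Y-linked level as a term Gja5 was 0.025 and Irx3 -0.031; without the 6 libraries Gja5 was 0.028; without the 4 libraries Gja1 was 0.14 and Cntn2 -0.13; in limma on log2(FPKM + 1) and log2(FPKM + 0.1) Cntn2 was -0.029 and -0.26; in the S libraries alone Hcn4 was -0.022. Leaving out 1 library gave -0.091 to 0.82 for Scn4b, -0.32 to 0.14 for Gja1, -0.34 to 0.13 for Gja5, -0.65 to 0.70 for Cntn2 and -0.27 to 0.63 for Hcn4. All-gene counts at an adjusted p of 0.05 went from 0 to at most 59 (no filter on low counts), and at the study's thresholds from 303 to between 52 (limma on log2(FPKM + 1)) and 852 (no filter), with 484 without WT2 and 462 without S9.

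In female KO against female WT, all-gene counts went from 8 to between 0 and 1110 at an adjusted p of 0.05, with 2409 without S1, 2 without S5, 1 without S6 and 13 without TKO2, and from 1450 to between 526 and 2239 at the study's thresholds, with 640 without S3, 964 without S6 and 2954 without S1.

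Between the series in KO hearts, 1 of the 7 members other than Cntn2, in place of 0, passed with no filter on low counts (Scn4b), and leaving out 1 library gave 0 in each fit. In libraries labelled male Scn10a was -0.20, Cntn2 -0.77, Hcn4 -0.48 and Tbx3 0.58, and in those labelled female Irx3 was 0.048. Without the 6 libraries Scn10a was -0.20, Cntn2 -0.76, Hcn4 -0.48 and Tbx3 0.59. Without the sex term Cntn2 was -0.38 and Hcn4 -0.22; with the Y-linked level in its place Hcn4 was -0.031 and Tbx3 0.47. With the atrial score as a term Gja5 was 0.0074; Hcn4 was -0.027 with upper-quartile normalization and -0.0092 in limma on log2(FPKM + 1). Leaving out 1 library gave -0.12 to 0.37 for Hcn4, -0.23 to 0.093 for Tbx3 and -0.14 to 0.12 for Irx3. The all-gene count of 1622 ran from 7 (libraries labelled male) to 2507 (no filter), and that of 1605 from 521 to 3161. The former was 44 with the Y-linked level in place of the sex term, 71 without the 6 libraries and 151 with the atrial score as a term. It was 919 without S5 and 752 without S6.

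For the slope on the atrial score, 0 of the 7 members other than Cntn2, in place of 1, passed in limma on log2(FPKM + 1) and log2(FPKM + 0.1), with Myl7 alone as the score, below the widest gap and without the 6 libraries; leaving out 1 library gave 0 to 1. Below the gap the slopes of Scn4b, Gja5, Cntn2 and Irx3 were 0.17, -0.11, -0.34 and 0.10. Without the series term that of Scn10a was -0.029, and without the 6 libraries that of Gja1 was -0.058. The all-gene count of 1108 ran from 0 (without the 6 libraries) to 3075 (no series term), and was 432 without S7 and 732 without S11. Scn10a, at 0 to 84 counts a library, is limited by depth.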
